A study of Mus musculus with 4 samples.

Results

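Nonsense-mediated decay (NMD) factors were examined in HT22 cells, an immortalised line derived from mouse hippocampal neurons, in which the long noncoding RNA Ntoco had been lowered or raised. The 9 genes were chosen by name, as Upf1, Upf2, Upf3a, Upf3b, Smg1, Smg5, Smg6, Smg8 and Smg9, out of 16846 gene rows in the count table. All 9 were present and all 9 passed the filter on low counts, which left 12115 genes. Smg5 brought the set forward, because earlier results of these data placed it among the genes with the smallest p in the knockdown comparison. Every value from that comparison is therefore given below as a description, with no test.

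The 4 groups were cells with a short hairpin RNA (shRNA) against Ntoco, named sh-Ntoco, cells with a control shRNA, named sh-Ctrl, cells given Ntoco, named Lv-Ntoco, and cells with the empty vector, named Vector. The labels give HT22 as the line of all samples, although their titles number the cells differently, and they list 1 sample a group where the table has 2 numbered columns. The columns call the vector pcDNA, a plasmid name, so whether Ntoco was delivered by plasmid or virus is uncertain, and the shRNA sequence is not given in the sources used here. Total counts per library lay between 18452588 and 19859041, and 0 rows were named Ntoco. The amount of Ntoco RNA was therefore not analysed here, and the group labels were not checked by it. The 2 columns of a group were used as 2 libraries, because they differed by far more than counting noise (chi-square per gene 62.1 to 156 for genes that reach 100 counts over both columns, where 1 is counting noise alone). Neither the labels nor the headers call them separate cultures, so every p below rests on a spread that may be technical. Of 12 neuronal markers, 7 had rows and 1, the neuronal enolase Eno2, was at 1 FPKM or more in every library. Of 6 fibroblast and meningeal markers, 3 were at that level in every library, namely Col1a1, Col1a2 and Vim. The same held for 3 of 6 oligodendrocyte-lineage markers (Mbp, Pdgfra and Cspg4), for 1 of 6 astrocyte markers (S100b), for 1 of 6 endothelial and pericyte markers (Pdgfrb) and for 0 of 6 microglial and macrophage markers.

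NMD removes mRNAs on which translation stops too early. The helicase Upf1 acts at the terminating ribosome, Upf2 and Upf3b link it to the exon junction complex left by splicing, and the kinase Smg1, held in check by Smg8 and Smg9, phosphorylates it. Phosphorylated Upf1 then recruits Smg6, an endonuclease that cuts the mRNA, and Smg5, an adaptor through which decay enzymes are brought in. In human cells the mRNAs of several of these factors, among them those of Upf1 and Smg5, are themselves NMD substrates.

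The set is shown first by a sequence found in the 3′ end of the Smg5 mRNA. The heptamer CTTAAGA, a motif taken from earlier results of these data, was searched on the mRNA strand in the 3′ untranslated region (UTR) of 1 coding transcript per gene in GENCODE M21 (build GRCm38). It was present in 2 of the 9 factors, Smg5 and Upf3a, and in 10.7% of the 11739 tested genes with such a transcript. The capitals mark the heptamer in the stretches below, which are written 5′ to 3′ on the mRNA strand.
Smg5 (chr3:88362193-88362221, plus strand, base 1096 of a 1230-base 3′ UTR): ctttggctgtgCTTAAGAggagctggctt
Upf3a (chr8:13798963-13798991, plus strand, base 500 of a 719-base 3′ UTR): taaaatgcagcCTTAAGAtcacaagggaa
The Upf3a stretch lies beyond the end of the RefSeq gene model, at position 13798723, so it is in the longer GENCODE transcript only. A match is a description of these letters and does not show that anything binds there.

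Levels between genes were compared as the authors' FPKM, which divides by gene length. Smg5 had the highest FPKM of the 9 factors in 8 of 8 libraries, with 42.8 ± 13.9 FPKM over all 8 (SD over libraries of all groups). Upf1 followed with 19.3 ± 5.38 FPKM, Smg8 with 15.9 ± 2.12 and Upf3a with 13.9 ± 2.97. The SDs of these 3 overlapped from each to the next. Smg6 with 8.67 ± 0.810 FPKM and Upf3b with 8.59 ± 0.845 FPKM could not be separated. Upf2 had 6.49 ± 0.761 FPKM, Smg1 5.43 ± 1.05 and Smg9 5.08 ± 1.26, again with overlapping SDs. Counts behind these levels ran from 372 to 7071 a library, so counting error was small beside the spread between libraries.

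**Figure D1:**
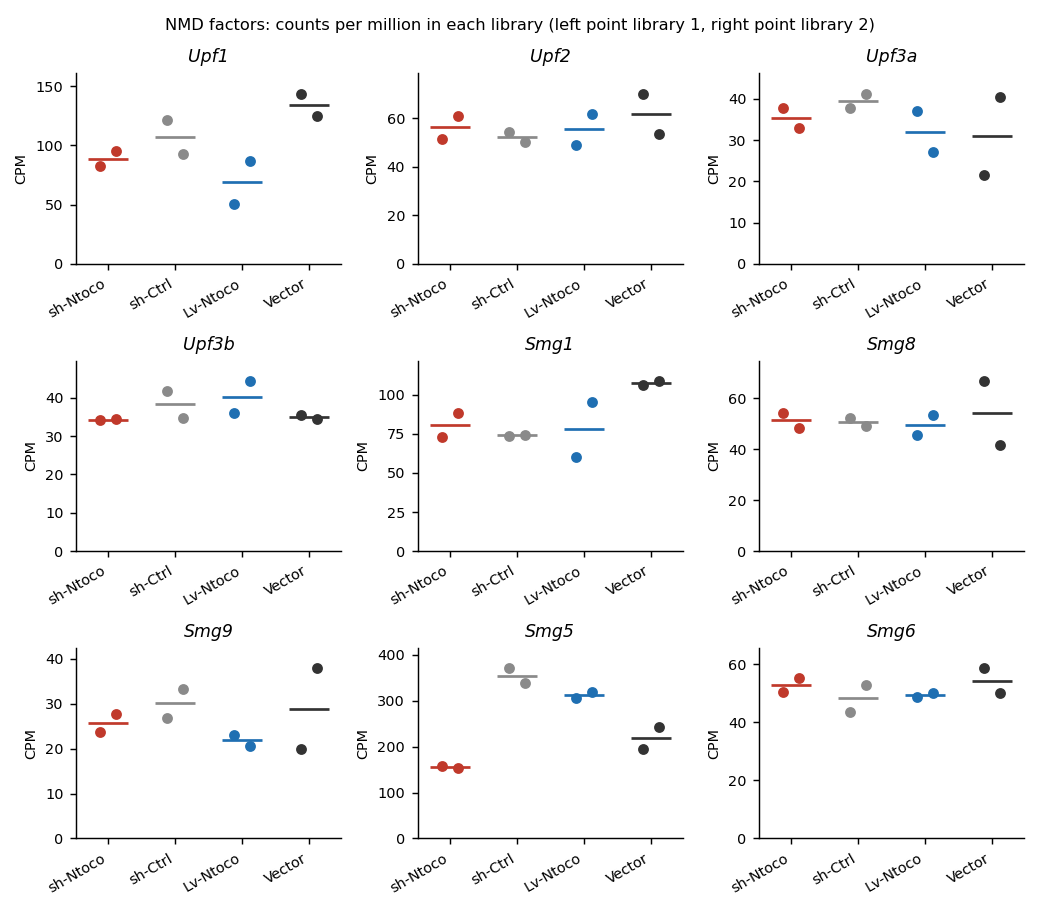
CPM, counts relative to the scaled library size (vertical axis from 0), of the 9 NMD factors in each of the 8 libraries, with points for libraries and a bar for the group mean. Smg5 sits at 153 to 158 CPM in sh-Ntoco and 338 to 370 CPM in sh-Ctrl, and the Vector libraries of Upf1 and Smg1 are the highest of the 8.

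In the knockdown, both libraries held less Smg5 mRNA than both control libraries, and the other 8 factors had log2 ratios between -0.27 and 0.13. Smg5 (Entrez Gene 229512, GRCm38 chromosome 3, 88336259 to 88362338) had 158 and 153 CPM in the sh-Ntoco libraries, against 370 and 338 CPM in the sh-Ctrl libraries. The groups did not overlap, and the 2 libraries within each group lay close together. The ratio of the means was 0.439, and the edgeR log2 ratio was -1.19 (SE 0.18). The value ranged from -1.25 to -1.12 when each library was left out in turn. In bulk RNA, fewer cells that make an mRNA and less of it per cell cannot be told apart. The 2 sh-Ntoco libraries were unlike each other in other respects, for example in the summed level of the 6 fibroblast and meningeal markers, at 601 and 2102 FPKM, against 1329 to 1837 FPKM in sh-Ctrl. Smg5 was at almost the same level in both. It was brought forward by a small p in this comparison, which favours genes whose 2 libraries agree. The part of cell make-up in its level was not tested.

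Upf1, Upf2 and the Upf3 paralogs had log2 ratios between -0.27 and 0.11 in the knockdown, each smaller in size than its SE. Upf1 had 82.7 and 94.8 CPM in sh-Ntoco and 121 and 92.8 CPM in sh-Ctrl, a log2 ratio of -0.27 (SE 0.28). The groups overlapped, and the ratio was -0.06 without sh-Ctrl library 1 and -0.45 without sh-Ctrl library 2. Upf2, which binds both Upf1 and the Upf3 proteins, had 51.4 and 61.0 CPM in sh-Ntoco and 54.3 and 50.1 CPM in sh-Ctrl (log2 ratio 0.11, SE 0.22). Of the Upf3 paralogs, Upf3b had 34.1 and 34.5 CPM in sh-Ntoco, against 41.7 and 34.8 CPM in sh-Ctrl (log2 ratio -0.16, SE 0.21). Upf3b did not overlap, but its upper sh-Ntoco and lower sh-Ctrl values were nearly equal. Upf3a, the paralog known as the weaker NMD activator, had 37.8 and 32.9 CPM in sh-Ntoco and 37.8 and 41.3 CPM in sh-Ctrl (log2 ratio -0.16, SE 0.32). Its log2 ratio was nearer to 0 than that of Smg5. Upf3a has the heptamer only in the longer GENCODE transcript, and whether the mRNA counted here held it was not tested.

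The kinase complex and the endonuclease overlapped between sh-Ntoco and sh-Ctrl. The kinase Smg1 had 73.0 and 88.1 CPM in sh-Ntoco and 73.5 and 74.4 CPM in sh-Ctrl (log2 ratio 0.12, SE 0.24). Its regulators had log2 ratios of 0.02 (SE 0.25) for Smg8 and -0.23 (SE 0.32) for Smg9. The endonuclease Smg6, which acts beside Smg5 in decay, had 50.3 and 55.1 CPM in sh-Ntoco and 43.5 and 53.0 CPM in sh-Ctrl (log2 ratio 0.13, SE 0.19). Over the 9 factors the median log2 ratio was -0.16, beside 0.01 over all 12115 genes, and -0.02 without sh-Ctrl library 1, -0.06 without sh-Ctrl library 2 and -0.06 without sh-Ntoco library 2. The groups did not overlap in 2 of 9 factors, both lower, where 29.2% of all genes did not overlap, 15.1% higher and 14.1% lower. Across all genes edgeR's quasi-likelihood test called 0% at an adjusted p of 0.05 in this comparison and 3.12% had an unadjusted p under 0.05, and nothing is read from these shares for the factors. DESeq2 called 15 genes, and without sh-Ntoco library 1 edgeR called 1.

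**Figure D2:**
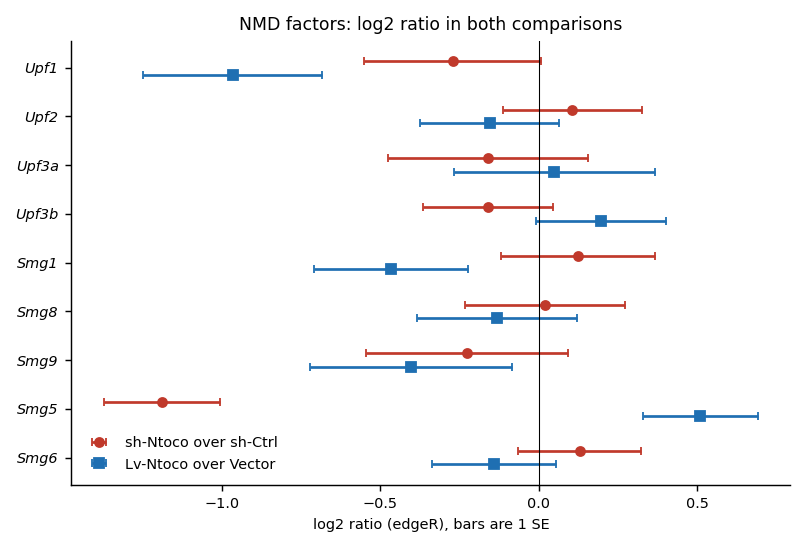
The edgeR log2 ratio (horizontal axis, bars of 1 SE) of each NMD factor in sh-Ntoco over sh-Ctrl (circles) and Lv-Ntoco over Vector (squares). Smg5 lies at -1.19 in the knockdown and 0.51 in the overexpression comparison, and Upf1 at -0.27 and -0.97.

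The overexpression comparison sets other libraries side by side, although its spread was estimated over all 4 groups, the sh-Ntoco and sh-Ctrl libraries included. None of the 9 factors passed edgeR's quasi-likelihood test at an adjusted p of 0.05 over all genes, as 0% of all 12115 genes did (lowest adjusted p 0.598, 923 genes at an unadjusted p under 0.05, DESeq2 1 gene). Without Lv-Ntoco library 2 edgeR called 24 genes, and none of the 9 was among them. Smg5 and Upf1 had an unadjusted p under 0.05, that is 2 of 9, beside 7.62% of all genes. In 5 of the 9 the libraries of the groups did not overlap, beside 47.2% of all genes. Of these, 2 were higher and 3 lower in Lv-Ntoco, beside 24.1% and 23.1% of all genes. The share without overlap was thus near that of all genes.

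Smg5 had 306 and 319 CPM in the Lv-Ntoco libraries, against 195 and 244 CPM in the Vector libraries. Both Lv-Ntoco libraries were above both Vector libraries, with a ratio of means of 1.42. The log2 ratio was 0.51 (SE 0.18, edgeR unadjusted p 0.0231, adjusted p 0.598), and under the alternatives the adjusted p ran from 0.387 to 0.997. In a fit of the Lv-Ntoco and Vector libraries alone the log2 ratio was 0.50 (SE 0.20, edgeR adjusted p 0.447). The Vector libraries themselves held less Smg5 than the sh-Ctrl libraries, at 338 and 370 CPM, and the Lv-Ntoco libraries lay between the 2 kinds of control. The order of the 4 groups from low to high was sh-Ntoco, Vector, Lv-Ntoco and sh-Ctrl, with no overlap between neighbours. The difference between the 2 control groups, which may differ in how the constructs were delivered, was not tested.

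Upf1 (Entrez Gene 19704, GRCm38 chromosome 8, 70331493 to 70353423) had 50.8 and 86.7 CPM in Lv-Ntoco, against 144 and 125 CPM in Vector. The Lv-Ntoco libraries were the lowest and the third lowest of the 8, and the Vector libraries the highest. The log2 ratio was -0.97 (SE 0.28, edgeR unadjusted p 0.00925, adjusted p 0.598), with adjusted p of 0.230 to 0.997 under the alternatives. It was -0.63 without Lv-Ntoco library 1 and -1.40 without Lv-Ntoco library 2. Exons of Upf1 overlap those of Cers1 and Gdf1 on the other strand by 68 and 63 bases, and the strand setting of the counting is not given in the sources used here.

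Smg1, the kinase that acts on Upf1 (Entrez Gene 233789, GRCm38 chromosome 7, 118131308 to 118244437), was also lower in both Lv-Ntoco libraries, with 60.1 and 95.4 CPM, against 106 and 109 CPM in Vector. Its log2 ratio of -0.47 (SE 0.24) had an edgeR adjusted p of 0.598, and leaving out Lv-Ntoco library 1 gave -0.17 and leaving out library 2 gave -0.84. Both Vector libraries were above all 6 others for Upf1 and for Smg1, so the Vector libraries also differed from both shRNA groups. Smg8 had 45.5 and 53.4 CPM in Lv-Ntoco and 66.9 and 41.5 CPM in Vector (log2 ratio -0.13, SE 0.25). Smg9 had 23.1 and 20.6 CPM in Lv-Ntoco and 19.9 and 37.9 CPM in Vector (log2 ratio -0.40, SE 0.32). For both regulators the Vector libraries spread more widely than the groups differed.

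The remaining factors had log2 ratios between -0.16 and 0.20 in Lv-Ntoco against Vector, each smaller in size than its SE. Smg6 had 48.6 and 50.04 CPM in Lv-Ntoco and 58.6 and 50.13 CPM in Vector (log2 ratio -0.14, SE 0.19). Its groups did not overlap by a margin of less than 1 CPM, and 126 bases of its exons are shared with Srr on the other strand. Upf2 had 49.1 and 61.9 CPM in Lv-Ntoco and 70.1 and 53.6 CPM in Vector (log2 ratio -0.16, SE 0.22). Upf3b had 35.9 and 44.4 CPM in Lv-Ntoco and 35.5 and 34.6 CPM in Vector (log2 ratio 0.20, SE 0.21). Upf3a had 37.0 and 27.1 CPM in Lv-Ntoco and 21.5 and 40.4 CPM in Vector (log2 ratio 0.05, SE 0.32). The adjusted p of these 4 lay between 0.723 and 0.960. Over the 9 factors the median log2 ratio was -0.14, beside -0.01 over all genes, with 3 above 0 and 6 below. It was -0.02 without Vector library 1 and -0.25 without either Vector library 2 or Lv-Ntoco library 2.

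The genes whose pattern was most like that of Smg5 were ranked by Pearson correlation of log2 CPM over the 8 libraries, which share the same groups. The first 5 were the focal adhesion kinase Ptk2 (r = 0.976), the unconventional myosin Myo1c (0.956), the calcium sensor Stim1 (0.954), the mitotic kinase Pbk (0.949) and the mitochondrial dehydrogenase subunit Idh3a (0.935). In the knockdown the log2 ratio was -0.35 (SE 0.16) for Ptk2, -1.43 (SE 0.27) for Myo1c, -0.72 (SE 0.20) for Stim1, -1.06 (SE 0.26) for Pbk and -0.56 (SE 0.19) for Idh3a. In all 5, both sh-Ntoco libraries were below both sh-Ctrl libraries, as in 14.1% of all genes. The 5 were chosen for their likeness to Smg5 over these same libraries, so this placing follows from the choice. In the overexpression comparison the log2 ratio ran from 0.11 (SE 0.16) for Ptk2 to 0.62 (SE 0.26) for Pbk. There the groups overlapped for Myo1c (0.41, SE 0.27) and the others were higher without overlap, beside 24.1% of all genes. Ptk2 was chosen for its shape, and the size of its differences was smaller than that of Smg5.

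**Figure D3:**
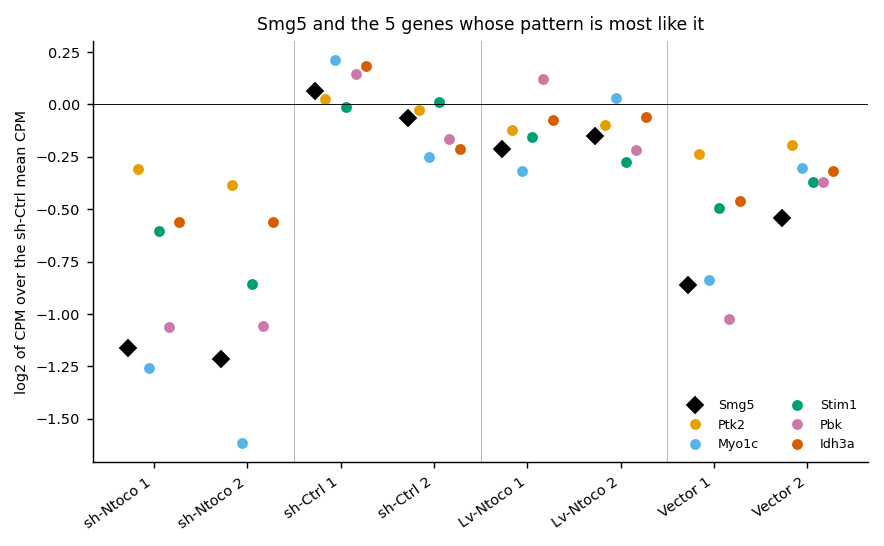
Log2 of CPM over the mean of the sh-Ctrl libraries (vertical axis) in each of the 8 libraries for Smg5 (diamonds) and the 5 genes most like it (circles). In all 6 genes the 2 sh-Ntoco libraries are the lowest of the 8, and the 5 were chosen by correlation with Smg5 over these libraries.

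Of these 5 genes, 4 held the heptamer of the Smg5 mRNA in the 3′ UTR, beside 10.7% of the tested genes with a coding transcript. The other 1, Ptk2, did not. In Idh3a the heptamer starts at base 1286 of a 1296-base 3′ UTR, near its end. The stretches of these 4 genes are shown beside that of Smg5, again with the heptamer in capitals.
Myo1c, first site (chr11:75673185-75673213, plus strand): catattcctgcCTTAAGAatgtcctttta
Myo1c, second site (chr11:75673345-75673373, plus strand): gggggaaaagtCTTAAGAgtttggaagtc
Stim1 (chr7:102436681-102436709, plus strand): ggagtgtatctCTTAAGAggtgctgccct
Pbk (chr14:65817503-65817531, plus strand): gtctaagatgaCTTAAGAatcaagggacc
Idh3a (chr9:54604640-54604661, plus strand): gtaataaagaaCTTAAGAactg
Both the heptamer and the 5 genes were taken from these data, and the knockdown contributes to the ranking, so the match supports nothing further.

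Tested genes are described here by the number of heptamers in the 3′ UTR. The heptamer was itself taken from earlier results of these libraries, so the knockdown shares restate how it was chosen and are no evidence for it. Of the 156 genes with 2 or more, 32.7% had both sh-Ntoco libraries below both sh-Ctrl libraries. The share was 21.6% of the 1100 genes with 1 and 13.2% of the 10483 genes with none. The median knockdown log2 ratio was -0.12 with 2 or more, -0.05 with 1 and 0.01 with none. The medians were much smaller than the log2 ratio of Smg5. In Lv-Ntoco against Vector the medians were -0.11, -0.05 and 0.00 in the same order, and Smg5 was on the opposite side, at 0.51. There the shares lower without overlap were 31.4%, 25.3% and 23.0%, and the shares higher were 19.2%, 20.1% and 24.6%. The length of the 3′ UTR moved with the number of heptamers, with medians of 3846, 2370 and 810 bases, and its part in these shares was not tested.

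**Figure D4:**
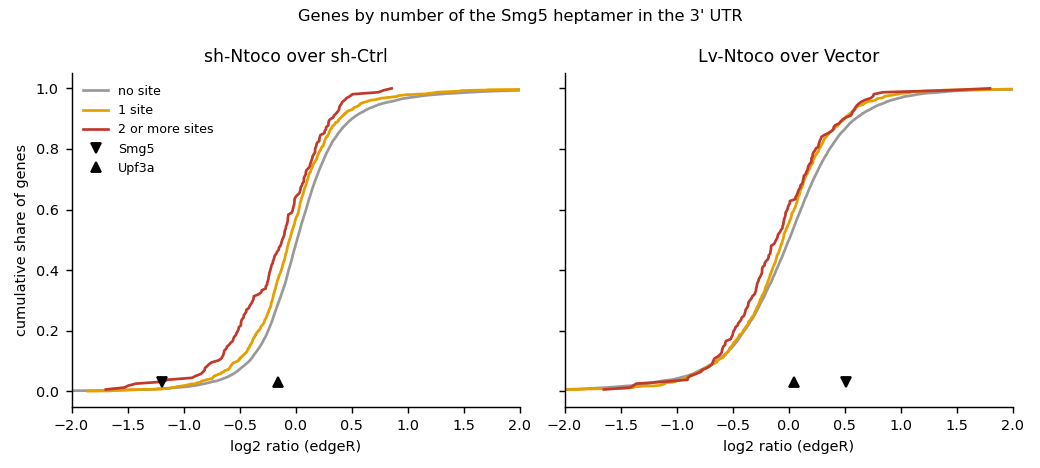
Cumulative share of tested genes (vertical axis) by edgeR log2 ratio (horizontal axis) for genes with no site, 1 site or 2 or more sites of the Smg5 heptamer in the 3′ UTR. The medians move left with more sites in both comparisons. They are 0.01, -0.05 and -0.12 in the knockdown and 0.00, -0.05 and -0.11 in Lv-Ntoco over Vector. Triangles mark Smg5 and Upf3a, and the heptamer was chosen from these data.

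The transcripts of the factors differed in features linked to NMD. GENCODE lists a transcript of the NMD class for Smg1, Smg5 and Smg6, that is 3 of 9, where 29.2% of the tested genes have at least 1. The main coding transcript has a start codon triplet upstream of its coding sequence in 4 of 9 (Smg1, Smg5, Smg9 and Upf2), where 49.7% of all have one. The 3′ UTR was 4233 bases long in Smg1, 1498 in Smg6, 1261 in Upf2 and 1230 in Smg5, beside a median of 926 bases over the tested genes. It was 958 bases in Upf1, 834 in Upf3b, 719 in Upf3a, 400 in Smg9 and 221 in Smg8. Counts per gene do not tell isoforms apart, so these values say nothing about how much of each mRNA was of the NMD class.

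Partners of the factors were read from 4 lists, and over all of them 0 genes passed an adjusted p of 0.05 in Lv-Ntoco against Vector. Among the 12 genes of the exon junction complex and its partners, the median log2 ratio was 0.03, beside -0.01 over all genes. It was -0.15 without Lv-Ntoco library 2, -0.18 without Vector library 2, 0.06 without Lv-Ntoco library 1 and 0.11 without Vector library 1. The groups did not overlap in 1 gene higher and 2 lower, that is 25.0% of the list, beside 47.2% of all genes. Of all genes, 24.1% were higher without overlap and 23.1% lower. Casc3, a core subunit of the complex, had 67.8 and 74.6 CPM in Lv-Ntoco and 91.5 and 96.1 CPM in Vector (log2 ratio -0.40, SE 0.17, edgeR adjusted p 0.598). Casc3 was the 1 gene of these 12 with an edgeR unadjusted p under 0.05 (p 0.0495), beside 7.62% of all genes. Acin1 had a log2 ratio of -0.66 (SE 0.35), the core subunit Rbm8a 0.30 (SE 0.23) and Pym1, which takes the complex apart, 0.23 (SE 0.31).

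Of 24 genes of translation termination, mRNP remodelling and decay, 23 were tested, with a median log2 ratio of -0.12 in Lv-Ntoco against Vector and of -0.07 without Vector library 1. The groups did not overlap in 1 gene higher and 7 lower, or 34.8% of those tested, beside 47.2% of all genes. By direction the shares of all genes were 24.1% higher and 23.1% lower. At an unadjusted p under 0.05 there were 4 lower genes and 0 higher, beside 4.09% and 3.53% of all genes. They were Dcp1a, Nbas, Stau1 and Edc4, of which the last 2 are named after their values were seen. The decapping cofactor Dcp1a had 34.4 and 42.4 CPM in Lv-Ntoco and 76.6 and 66.9 CPM in Vector (log2 ratio -0.90, SE 0.26, edgeR adjusted p 0.598). Nbas had a log2 ratio of -0.85 (SE 0.35), the exosome nuclease Dis3 0.13 (SE 0.22) and the ATPase Ruvbl2 0.12 (SE 0.17).

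Of 20 stress and signalling genes whose mRNAs have been described as NMD substrates, 16 were tested, and 4 (Atf3, Gas5, Snhg1 and Snhg12) were not. Their median log2 ratio was -0.52 in Lv-Ntoco against Vector and 0.37 in the knockdown, beside -0.01 and 0.01 over all genes. In Lv-Ntoco against Vector it was -0.20 without Vector library 1, -0.86 without Vector library 2 and -0.33 without Lv-Ntoco library 1. In the knockdown it was -0.02 without sh-Ntoco library 2, 0.63 without sh-Ntoco library 1, 0.66 without sh-Ctrl library 2 and 0.21 without sh-Ctrl library 1. In Lv-Ntoco against Vector 2 did not overlap higher and 8 lower, beside 24.1% and 23.1% of all genes. In the knockdown there were 2 higher and 1 lower, beside 15.1% and 14.1% of all genes. Ern1, the endoplasmic reticulum stress sensor, had 32.8 and 40.7 CPM in Lv-Ntoco and 91.7 and 106 CPM in Vector (log2 ratio -1.43, SE 0.58, edgeR adjusted p 0.598). In the knockdown its libraries were apart, with 31.0 and 124 CPM in sh-Ntoco and 31.6 and 57.9 CPM in sh-Ctrl. The NF-kB-inducing kinase Map3k14 had a log2 ratio of -1.03 (SE 0.57), Tbl2 0.55 (SE 0.22) and the chaperone regulator Bag1 0.35 (SE 0.19). Many of these genes also answer to stress signals, and the part of decay in their levels was not tested.

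The 20 splicing factors known for poison exons, which send part of their own mRNA to NMD, had medians of -0.27 in Lv-Ntoco against Vector and 0.03 in the knockdown. The first was -0.06 without Vector library 1 and -0.14 without Lv-Ntoco library 1, and the second -0.26 without sh-Ntoco library 2 and 0.23 without sh-Ntoco library 1. In Lv-Ntoco against Vector the groups did not overlap in 6 lower and 0 higher, beside 23.1% and 24.1% of all genes. By edgeR 0 had an unadjusted p under 0.05, beside 7.62% of all genes. Srsf2 had 240 and 362 CPM in Lv-Ntoco and 910 and 314 CPM in Vector (log2 ratio -1.02, SE 0.52). Vector library 2 lay between the Lv-Ntoco libraries, so the difference came from Vector library 1. Srsf6 had 191 and 311 CPM in Lv-Ntoco and 556 and 320 CPM in Vector (log2 ratio -0.80, SE 0.36). U2af1 had a log2 ratio of 0.49 (SE 0.31) and Srsf3 one of 0.15 (SE 0.23).

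**Figure D5:**
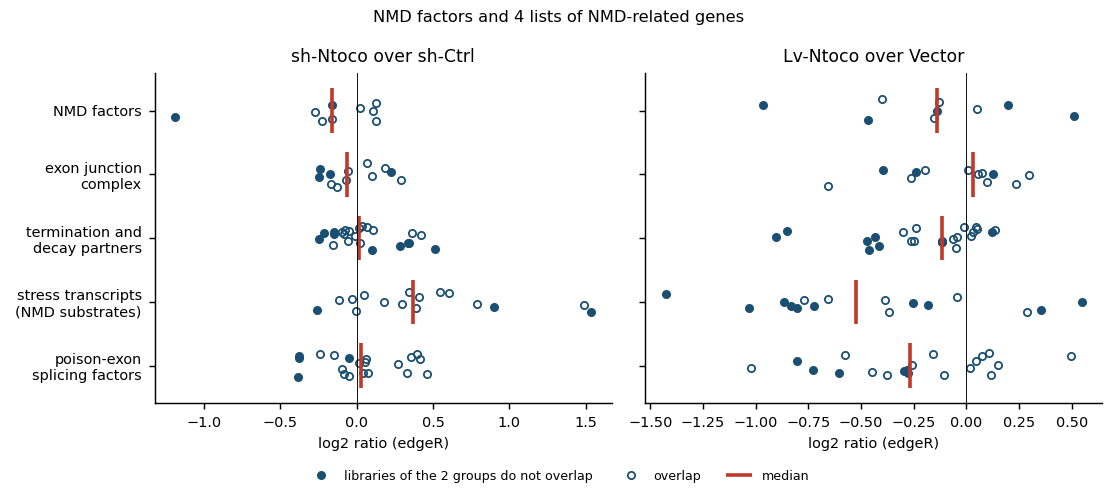
The edgeR log2 ratio (horizontal axis) of the 9 NMD factors and of the tested genes in 4 lists, for sh-Ntoco over sh-Ctrl and Lv-Ntoco over Vector, with filled points where the libraries of the groups do not overlap and a bar at the median. The stress transcripts have medians of 0.37 and -0.52, the farthest from 0 of the lists shown.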

How the data were processed

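The deposited table of counts holds unnormalized whole numbers per gene, and the FPKM table deposited by the authors divides them by gene length and library size. Per the submitters' processing notes the build was mm10 (GRCm38) and the tools were HISAT2, HTSeq, Cufflinks, Trimmomatic and DESeq. Per the labels' protocols the libraries were stranded and made from mRNA. Nothing on versions, roles, annotation or strand setting was found, so these count as not given in the sources used here. Column names were matched to groups by role (control or targeting shRNA, vector or overexpression), and 0 columns were left out. Counts were filtered with filterByExpr (minimum count 10) and scaled by TMM in edgeR 4.0.16 (R 4.3.3, limma 3.58.1), and the quasi-likelihood test was run over all 4 groups in 1 model (4 residual degrees of freedom, biological coefficient of variation 28.0%). Benjamini-Hochberg adjustment ran over 12115 genes, with a threshold of 0.05. CPM values carry the TMM factors. Each SE was computed as the size of the edgeR log2 ratio over the square root of its quasi-likelihood F statistic. An SE therefore restates that statistic, and in sh-Ntoco against sh-Ctrl it is given as a description only. The steps were tested on simulated data with a smaller spread between libraries than in these data. That test therefore does not show what could be detected here. DESeq2 1.42.0, RLE factors, no filter, a fit of the compared groups alone, a replicate block and leaving out each library were alternatives. Gene coordinates are from RefSeq GRCm38.p6, those of 3′ UTRs from GENCODE M21. The transcript used was the coding one with the longest coding sequence.

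The members, the lists and the heptamer were chosen with earlier results of these data known. Named genes are the 9 factors, the 2 highest and 2 lowest log2 ratios of each list in Lv-Ntoco against Vector, and the 5 genes most correlated with Smg5 (log2 CPM, prior count 2). A gene of 1 list is not reported here.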

Additional observations from a re-analysis of the deposited data

Results flagged for a closer look

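Smg5 lay on opposite sides of its controls in the 2 comparisons, with both sh-Ntoco libraries below both sh-Ctrl libraries and both Lv-Ntoco libraries above both Vector libraries. The log2 ratio of Lv-Ntoco over Vector minus that of sh-Ntoco over sh-Ctrl was 1.70 (SE 0.26), and it ran from 1.55 to 1.87 with each library left out. Upf3b was placed in the same way by narrow margins, its nearest values being 35.9 CPM in Lv-Ntoco and 35.5 CPM in Vector. In the knockdown they were 34.5 CPM in sh-Ntoco and 34.8 CPM in sh-Ctrl. The difference for Upf3b was 0.36 (SE 0.29), which is little more than its error. That difference ran from 0.20 to 0.50 with each library left out, beside 0.04 to 0.34 for its log2 ratio in Lv-Ntoco over Vector and -0.28 to -0.02 in sh-Ntoco over sh-Ctrl. Neither difference was tested, since the knockdown brought the factors forward. Of all genes, 24.1% did not overlap and were higher in Lv-Ntoco against Vector, and 14.1% did not overlap and were lower in sh-Ntoco against sh-Ctrl. The share of all genes placed so in both comparisons was not counted, so this placing cannot be called rare.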

How the results depend on the processing

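No factor passed an adjusted p of 0.05 in Lv-Ntoco against Vector under any of the 13 alternatives, which gave 117 values for the 9 factors, 111 in the same direction. The 6 others came from leaving out 1 library. Over these leave-outs the log2 ratio ran from -0.43 to 0.25 for Smg8, from -0.79 to 0.14 for Smg9, from -0.34 to 0.051 for Upf2 and from -0.34 to 0.58 for Upf3a. In these 4 the groups overlapped. In sh-Ntoco over sh-Ctrl, leaving out a library turned the sign in 4 factors, with ranges of -0.02 to 0.25 for Smg1, -0.01 to 0.28 for Smg6, -0.07 to 0.10 for Smg8 and -0.02 to 0.22 for Upf2. The ranges were -0.37 to -0.06 for Smg9, -0.45 to -0.06 for Upf1, -0.27 to -0.06 for Upf3a and -0.28 to -0.02 for Upf3b. List medians without each library, of which the text gives the farthest moves, were chosen after seeing the data. The number of genes called in Lv-Ntoco against Vector was 1 with DESeq2, 1 with the compared groups alone and 0 to 24 with a library left out. In sh-Ntoco against sh-Ctrl it was 15 with DESeq2 and 0 to 1 with a library left out. With a replicate block the count was 0 in both comparisons, and Smg5 had log2 ratios of 0.51 and -1.19. Same-numbered libraries deviated together (correlation over 0.1) in 2 of 6 pairs of groups. The correlations ran from -0.36 for sh-Ntoco with Vector to 0.36 for sh-Ntoco with sh-Ctrl. Whether a shared number marks a shared batch cannot be told from these values. Where 1 library was left in a group, it was assumed to vary like the others. With 2 libraries a group, small differences of these factors could not be detected. Larger ones did not pass either, such as that of Upf1 in Lv-Ntoco against Vector (log2 ratio -0.97, edgeR adjusted p 0.598). The lack of calls therefore does not show that the differences were small.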
